A study of Rattus norvegicus with 4 samples.

Results

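The genes described here are 7 genes best known from the contractile machinery of skeletal and heart muscle, measured in cultured smooth muscle cells of the rat aorta. They are Acta1, Actc1, Tnnc1, Tnnt2, Fbxl22, Des and Ldb3. They were chosen by their values on these same arrays, so the ratios below describe them and test nothing. Of 31099 probe sets (groups of short probes that together read 1 transcript), 12 were annotated to exactly 1 of these symbols, and they covered 6 of the 7 genes out of 14218 genes named on the array. Actc1 had no probe set of its own, because all 5 probe sets that carry its symbol are annotated to Acta2 as well. Of the 12 probe sets, 8 exceeded the intensity floor of 28.1 on 1 array or more.

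The cells came from Sprague-Dawley rats. They were held for 3 days in medium with serum and for 3 days without it, and were treated for 24 h. The groups were IL-1b (interleukin-1b, an inflammatory cytokine) at 2.5 ng/mL; its vehicle, 0.1% bovine serum albumin (BSA) with 10 mM acetic acid; PDGF-DD (a platelet-derived growth factor) at 30 ng/mL; and its vehicle, 0.01% BSA. Each group was 1 sample on 1 array. No difference below therefore has a replicate check, a spread or a p-value, and the number of arrays limits the precision. A difference of at least 2-fold was used as a fixed rule of size.

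Striated muscle contracts through sarcomeres, in which actin thin filaments slide past myosin thick filaments between Z discs. Calcium binds the troponin complex on the thin filament and lets myosin reach actin. Smooth muscle has no sarcomeres and is regulated mainly through phosphorylation of the myosin light chain, yet it can express some genes of the striated set. Many genes of both sets carry CArG boxes, the sites bound by serum response factor (SRF) with its cofactors of the myocardin family.

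Markers of the cells were read before the members. All 7 smooth muscle markers were detected above the floor, and their summed intensity was 9217 with IL-1b against 31514 with its vehicle, and 4772 with PDGF-DD against 23343 with its vehicle. Of 10 cardiac muscle markers, 8 were at the floor on all 4 arrays, including the myosins Myh6 and Myh7, troponin I (Tnni3) and the natriuretic peptides Nppa and Nppb. Of 8 skeletal muscle markers on the array, Myod1 was at the floor throughout and 7 were above it somewhere. The summed skeletal markers were 1367 with IL-1b against 1193 with its vehicle, and 3135 with PDGF-DD against 2187 with its vehicle. Most of that sum was Myh1, at 1134 with IL-1b against 873 with its vehicle, and at 2846 with PDGF-DD against 1786 with its vehicle. Only 1 of 5 Myh1 probe sets, the one used here, was higher with IL-1b; the other 4 were lower, so the IL-1b difference in the skeletal sum rests on that probe set. Of 7 endothelial markers 6 were at the floor on all 4 arrays, as were 5 of 8 leukocyte markers. The summed fibroblast markers were 27971 with IL-1b against 20707 with its vehicle, and 13900 with PDGF-DD against 20047 with its vehicle. The summed leukocyte markers were 2722 with IL-1b against 1194 with its vehicle, and 1159 with PDGF-DD against 1288 with its vehicle. Lyz2, a lysozyme, made nearly all of the IL-1b difference in that sum, at 1305 with IL-1b and at the floor with its vehicle, while Cd14 read 1333 against 1121. The part of these other markers in the members' values was not tested. In such bulk samples, fewer cells of a type and less RNA per cell cannot be told apart. The 3'/5' intensity ratio of the beta-actin control, a sign of RNA quality, was 2.05 with IL-1b against 1.58 with its vehicle. It was 1.37 with PDGF-DD against 1.26 with its vehicle. For the GAPDH control the ratio was 1.27 with IL-1b against 1.22 with its vehicle. With PDGF-DD it was 1.07 against 1.11 with its vehicle. The part of RNA quality in the members' values was not tested.

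Acta1, Tnnc1 and Fbxl22 were far lower with either factor than with either vehicle. Ldb3 was lower too, but much of its difference depended on which vehicle array it was set against. Tnnt2 was at least 2-fold lower with either factor only against the IL-1b vehicle array. Des was near the floor on every array.

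Acta1 encodes skeletal muscle alpha-actin, the thin filament actin of skeletal muscle. Its intensity was 261 with IL-1b against 4782 with the IL-1b vehicle, and 117 with PDGF-DD against 3526 with the PDGF-DD vehicle. Both vehicle arrays stood high and both factor arrays low. The share of all genes ordered this way was not counted. Acta1 was thus 18.3-fold lower with IL-1b (log2 ratio -4.19) and 30.1-fold lower with PDGF-DD (log2 ratio -4.91). These ratios ranked 7 from the lowest of 10679 genes with IL-1b and 3 from the lowest of 10142 with PDGF-DD. Between the vehicle arrays Acta1 was 1.36-fold lower on the PDGF-DD vehicle array. Against the other vehicle its log2 ratios were -3.75 with IL-1b and -5.35 with PDGF-DD.

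Tnnc1 encodes the troponin C of heart and slow skeletal muscle, the calcium-binding subunit of the complex. Its intensity was 321 with IL-1b against 6597 with the IL-1b vehicle, and 205 with PDGF-DD against 3243 with the PDGF-DD vehicle. The factor arrays were again both below the vehicle arrays. Tnnc1 was 20.6-fold lower with IL-1b (rank 3 from the lowest) and 15.8-fold lower with PDGF-DD (rank 8). The vehicle arrays differed more for this gene than for Acta1, with Tnnc1 2.03-fold lower on the PDGF-DD vehicle array. Against the other vehicle it was 10.1-fold lower with IL-1b and 32.2-fold lower with PDGF-DD.

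Tnnt2 encodes cardiac troponin T, the subunit that ties the complex to tropomyosin. Its intensity was 53.1 with IL-1b against 308 with the IL-1b vehicle, and 35.2 with PDGF-DD against 51.1 with the PDGF-DD vehicle. The IL-1b vehicle array alone stood high, and the other 3 arrays lay within 2-fold of each other. Tnnt2 was 5.81-fold lower with IL-1b than with its own vehicle, but 1.04-fold higher than with the PDGF-DD vehicle. With PDGF-DD it was 1.45-fold lower than with its own vehicle and 8.76-fold lower than with the IL-1b vehicle. The PDGF-DD vehicle array was itself 6.04-fold below the IL-1b vehicle array, rank 36 from the lowest of 10389 genes. With a floor at the 60th percentile, the log2 ratio of Tnnt2 with IL-1b, -2.54 as given, was -1.55. The other probe set of Tnnt2 was at the floor on all 4 arrays.

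Fbxl22 encodes an F-box protein with leucine-rich repeats, the substrate-binding part of a ubiquitin ligase, which is found at the Z disc of heart muscle. Its intensity was 153 with IL-1b against 1487 with the IL-1b vehicle, and 28.5 with PDGF-DD against 1212 with the PDGF-DD vehicle. The PDGF-DD value lay just above the floor of 28.1. Fbxl22 was 9.72-fold lower with IL-1b (rank 25 from the lowest) and 42.5-fold lower with PDGF-DD (rank 2). The size of the PDGF-DD ratio depends on how values near the floor are treated, and its log2 value of -5.41 became -4.79 when an offset of 16 replaced the floor and -3.53 with a floor at the 60th percentile. The vehicle arrays differed little, with Fbxl22 1.23-fold lower on the PDGF-DD vehicle array.

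Ldb3 encodes a PDZ and LIM domain protein (also called ZASP) that binds alpha-actinin at the Z disc. By the probe set that stood for the gene, its intensity was 42.2 with IL-1b against 285 with the IL-1b vehicle, and 25.8 with PDGF-DD against 107 with the PDGF-DD vehicle. Of 6 probe sets, 3 were above the floor on both vehicle arrays and 3 were at the floor on all 4. The next probe set read 10.4 with IL-1b against 230 with its vehicle, and 12.5 with PDGF-DD against 84.3 with its vehicle. The remaining one read 25.6 with IL-1b against 137 with its vehicle, and 2.39 with PDGF-DD against 51.6 with its vehicle. All 3 were ordered the same way, with the IL-1b vehicle array highest, the PDGF-DD vehicle array next and the factor arrays at or near the floor. With IL-1b against its vehicle the folds were 6.75-fold lower, at least 8.18-fold lower and at least 4.87-fold lower. With PDGF-DD against its vehicle they were at least 3.81-fold, at least 3.00-fold and at least 1.84-fold lower. The PDGF-DD vehicle array was 2.66-fold, 2.73-fold and 2.65-fold below the IL-1b vehicle array by these 3 probe sets. With a floor at the 60th percentile, an intensity of 105, the log2 ratio of Ldb3 was -1.44 with IL-1b and -0.03 with PDGF-DD against their own vehicles, and -0.03 with IL-1b against the PDGF-DD vehicle.

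Des encodes desmin, the intermediate filament protein that links Z discs in striated muscle and dense bodies in smooth muscle. Its only probe set read 24.6 with IL-1b against 42.6 with the IL-1b vehicle, and 25.3 with PDGF-DD against 19.6 with the PDGF-DD vehicle. The IL-1b vehicle array alone was above the floor, so Des was at least 1.52-fold lower with IL-1b, and no ratio was read within the PDGF-DD pair. Desmin RNA was thus not detectable by this rule on 3 of the 4 arrays.

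Actc1, which encodes the alpha-actin of heart muscle, could not be read apart from Acta2, the smooth muscle alpha-actin. Of the 5 shared probe sets, 1 was at the floor on all 4 arrays. The other 4 had log2 ratios between -1.36 and -0.64 with IL-1b and between -2.50 and -0.67 with PDGF-DD, each against its own vehicle, with 1 IL-1b value a bound. All 4 were lower with either factor, and no value is given to Actc1 from them.

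**Figure D1:**
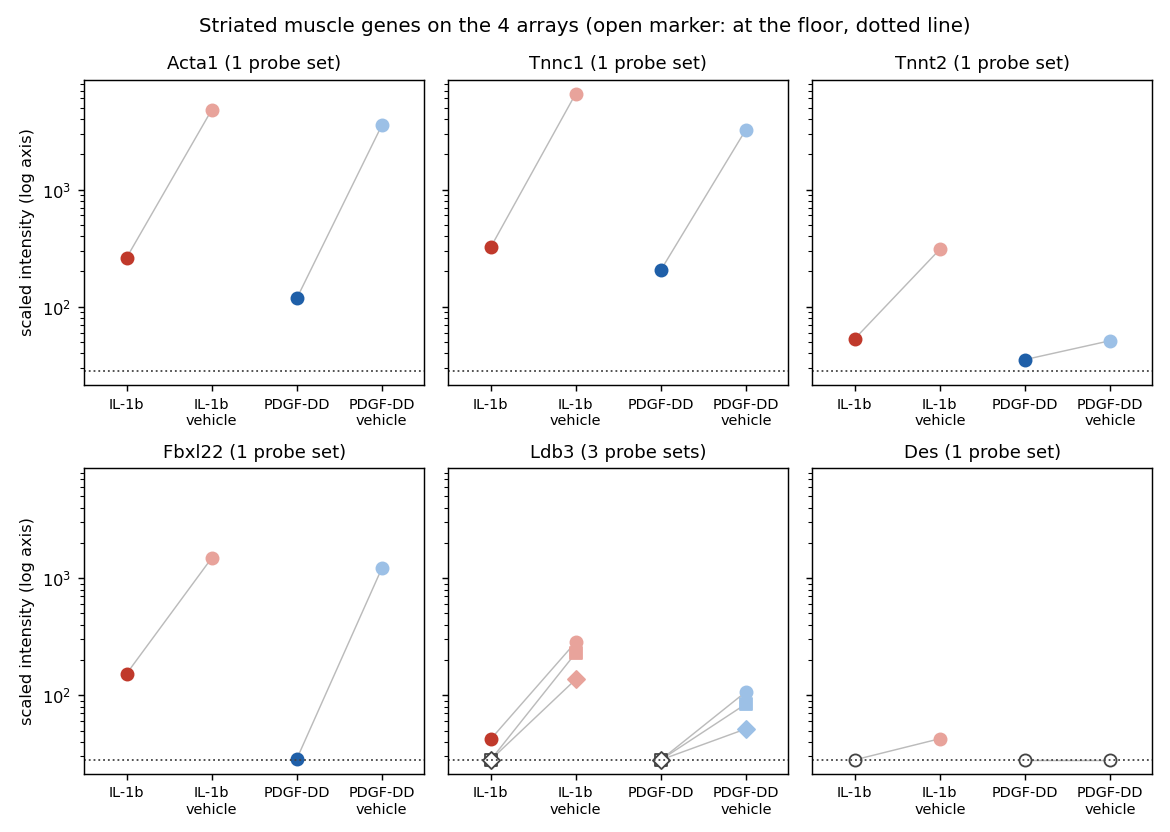
Scaled intensity (log axis) of the 8 probe sets above the floor on at least 1 array, with 1 point for each array and grey lines joining a factor to its own vehicle; open markers are values set to the floor (dotted line, 28.1). Acta1, Tnnc1 and Fbxl22 stood high on both vehicle arrays, whereas Tnnt2 stood high on the IL-1b vehicle array alone.

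The promoters of Acta1, Fbxl22 and Ldb3 are shown because each holds a CArG box in the 250 bases upstream of an annotated start, and these 3 genes were at least 2-fold lower with both factors. The sequences are those of RefSeq on build GRCr8, on the strand of the gene, and capitals mark CArG boxes and MCAT elements. The CArG box was searched as CC, then A or T at each of 6 positions, then GG, which reads the same on both strands. The MCAT element, the site of TEAD factors in many muscle promoters, was searched as CATTCC on both strands, and no CArG match overlapped an MCAT match here.
Acta1, chr19:68784195-68784444, minus strand: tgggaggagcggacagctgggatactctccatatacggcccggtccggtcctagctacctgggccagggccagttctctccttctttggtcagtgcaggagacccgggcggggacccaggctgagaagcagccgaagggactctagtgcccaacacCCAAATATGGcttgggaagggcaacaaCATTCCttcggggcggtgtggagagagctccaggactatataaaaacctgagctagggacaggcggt
Fbxl22, chr8:75971715-75971964, minus strand: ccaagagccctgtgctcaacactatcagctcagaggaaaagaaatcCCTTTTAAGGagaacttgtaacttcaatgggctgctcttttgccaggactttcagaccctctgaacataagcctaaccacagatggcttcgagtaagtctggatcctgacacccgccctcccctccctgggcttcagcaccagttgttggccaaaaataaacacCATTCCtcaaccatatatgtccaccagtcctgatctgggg
Ldb3, chr16:9924680-9924929, minus strand: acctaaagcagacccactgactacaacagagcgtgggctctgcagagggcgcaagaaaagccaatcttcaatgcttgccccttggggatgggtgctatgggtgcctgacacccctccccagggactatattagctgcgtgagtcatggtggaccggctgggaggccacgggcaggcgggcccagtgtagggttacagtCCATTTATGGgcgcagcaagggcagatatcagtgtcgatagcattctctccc

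In Acta1 the CArG box CCAAATATGG began 94 bases upstream of the start and the MCAT element 67 bases upstream. In Fbxl22 the CArG box CCTTTTAAGG began 204 bases upstream and the MCAT element 40 bases upstream. In Ldb3 the CArG box CCATTTATGG began 52 bases upstream. Tnnt2 held an MCAT element 83 bases upstream of the first of its 2 listed starts and no CArG match, and the windows of Des and Actc1 held neither. The promoter table gave a window for 6 of the 7 genes, with no entry for Tnnc1. Of all 33469 windows of this length, 1.50% held a CArG box and 12.1% an MCAT element. A match describes the sequence alone, and nothing on these arrays measured binding.

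**Figure D2:**
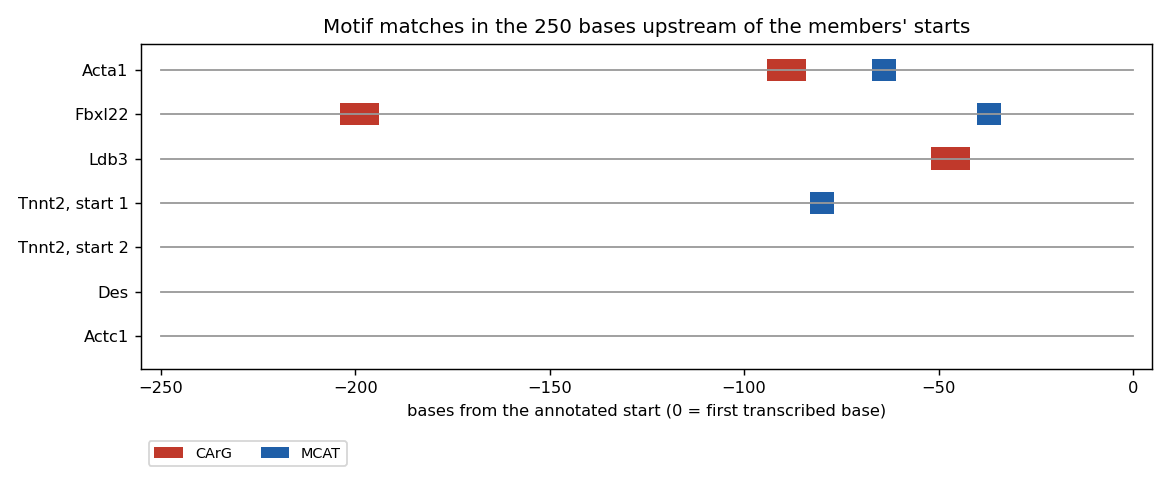
Positions of CArG (red) and MCAT (blue) matches in the 250 bases upstream of the annotated starts of 6 genes, in bases from the start. CArG boxes lie in the windows of Acta1, Fbxl22 and Ldb3.

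Counted over the genes, 5 of the 6 measured members were at least 2-fold lower with IL-1b than with its own vehicle, and 0 were higher. Over all genes above the floor on either array, 5.42% were at least 2-fold lower in that comparison. With PDGF-DD against its own vehicle, 4 of 5 measured members were lower and 0 higher, where 4.67% of all genes were lower. Since the members were chosen with these comparisons known, their counts are a description. Over the measured members the log2 ratio had a median of -3.02 with IL-1b and -3.99 with PDGF-DD, where that of all genes was 0.02 and 0.01.

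The vehicle arrays also differed in 3 of 6 members (Tnnc1, Tnnt2 and Ldb3), each at least 2-fold lower on the PDGF-DD vehicle array, where 4.67% of all genes were. Tnnc1 lay at the edge of the rule there, and the count was 2 with the scaling as deposited or with quantile normalization (Tnnc1 log2 ratio -0.97), both of which put Tnnc1 under 2-fold, and 4 with a floor at the 20th percentile. With IL-1b against the PDGF-DD vehicle, 4 of 5 measured members were at least 2-fold lower, where 4.97% of all genes were; Tnnt2 was the member that was not. Set against the IL-1b vehicle, 5 of 6 members were lower with PDGF-DD, where 10.3% of all genes were. These comparisons share arrays and are not independent of each other. The vehicles differ in composition, and that difference cannot be told apart from any difference between cultures or arrays. The BioC controls, bacterial transcripts added to each sample, also separated the pairs. Their BioC-3 probe set read 590 with IL-1b and 606 with its vehicle, but 181 with PDGF-DD and 194 with its vehicle. The BioB, BioDn and CreX controls showed no such gap. CreX-3, for example, read 7462 with IL-1b, 7448 with its vehicle, 6244 with PDGF-DD and 7775 with its vehicle. The part of array handling in the vehicle difference was not tested.

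**Figure D3:**
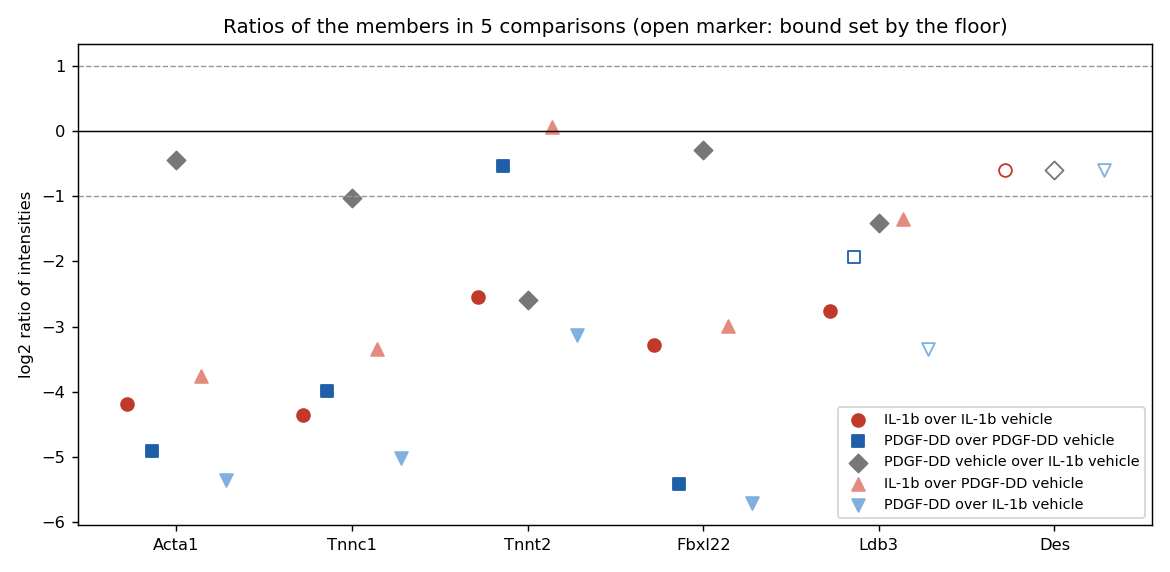
Log2 ratio of intensities for 6 genes in 5 comparisons, with dashed lines at 2-fold and open markers where the floor makes the ratio a bound. Grey diamonds give the PDGF-DD vehicle over the IL-1b vehicle; for Acta1 and Fbxl22 they lie near 0 (-0.44 and -0.29), and for Tnnt2 the diamond (-2.59) is as low as the IL-1b ratio (-2.54).

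Set against each other, the factor arrays differed less than either did from its vehicle for Acta1, Tnnc1 and Fbxl22. The same held for Ldb3, with ratios that are partly bounds, but not for Tnnt2. Fbxl22 was 5.37-fold lower with PDGF-DD than with IL-1b (28.5 against 153), and Acta1 was 2.23-fold lower (117 against 261). Tnnc1 and Tnnt2 were 1.57-fold and 1.51-fold lower with PDGF-DD, under the rule of size, and Ldb3 at least 1.50-fold lower. At least 2-fold lower were therefore 2 of 5 measured members, where 8.68% of all genes were. With a floor at the 60th percentile, the Fbxl22 log2 ratio of -2.42 became -0.54 and 1 member was left. The difference of the own-vehicle log2 ratios, PDGF-DD minus IL-1b, was -2.13 for Fbxl22, -0.72 for Acta1, 0.38 for Tnnc1 and 0.82 for Ldb3. For Tnnt2 it was positive and larger, from log2 ratios of -0.54 with PDGF-DD and -2.54 with IL-1b. The PDGF-DD vehicle array was below the IL-1b vehicle array for each of these genes, whichever the sign. The log2 ratio between the vehicles was -1.02 for Tnnc1, -2.59 for Tnnt2 and -1.41 for Ldb3, where the sign is positive. It was -0.44 for Acta1 and -0.29 for Fbxl22, where the sign is negative. This vehicle ratio is itself a term of the difference, so the sign is not independent of it. The Ldb3 ratio with PDGF-DD is a bound. These differences could not be tested with 1 array a group.

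Many other sarcomere genes read under the floor, which is a percentile of all values and not a detection call. Of 50 in the thin filament, thick filament, and Z disc and M band lists, 25 were at the floor on all 4 arrays, against 23.4% of all genes. With the genes of calcium handling and energy supply added, 39 of 74 were. They included titin (Ttn), nebulin (Neb), the Z disc alpha-actinins Actn2 and Actn3, the slow skeletal troponin T Tnnt1 and myoglobin (Mb). Past the rule of size with IL-1b against its vehicle were 8 lower and 2 higher of 34 measured genes, with a median log2 ratio of -0.41. With PDGF-DD against its vehicle, 7 of 31 were lower and 0 higher, with a median of -0.53. These counts follow the floor, and ranged from 4 to 16 lower with IL-1b and from 4 to 16 lower with PDGF-DD when the floor was set at the 60th or 20th percentile.

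The genes of the thin filament list, other troponins, caps and nebulin, were faint. The tropomyosins Tpm1 and Tpm2 also belong to thin filaments but were counted with the smooth muscle contractile genes, and they were bright. Tpm1 read 4752 with IL-1b against 8527 with its vehicle, and 4208 with PDGF-DD against 7546 with its vehicle. At the floor used, 0 of 7 measured genes of the thin filament list were at least 2-fold lower or higher with IL-1b, and 0 of 6 with PDGF-DD. With a floor at the 20th percentile 3 were lower with IL-1b and 2 with PDGF-DD, and with an offset of 16 in its place 0 and 1, so these counts depend on the floor. The troponin I of slow muscle, Tnni1, read 20.8 with IL-1b against 49.0 with its vehicle, and 54.8 with PDGF-DD against 60.4 with its vehicle. The troponin C of fast muscle, Tnnc2, read 35.5 with IL-1b against 58.1 with its vehicle, and 41.5 with PDGF-DD against 60.2 with its vehicle. Such values lie within a few-fold of the floor, where a lower level could not show its full size. The Tnni1 ratio with IL-1b is a bound, at least 1.74-fold lower, and it was at least 2.15-fold lower against the PDGF-DD vehicle.

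Among thick filament genes 1 of 7 was lower with each factor, Mybpc2, the fast muscle myosin-binding protein C. It read 46.2 with IL-1b against 139 with its vehicle, and 11.4 with PDGF-DD against 146 with its vehicle. Its second probe set was at the floor on 3 arrays and read 33.1 on the PDGF-DD vehicle array. Lower thick filament genes numbered 3 with IL-1b and 4 with PDGF-DD at a floor at the 20th percentile, and 0 with either at the 60th. Myl1, a light chain of fast muscle myosin, was at least 6.05-fold higher with IL-1b, at 170 against 16.1.

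Of the Z disc and M band genes, 2 of 10 measured were lower and 1 higher with IL-1b, and 3 of 9 lower and 0 higher with PDGF-DD. With a floor at the 20th percentile 4 were lower and 3 higher with IL-1b, and 6 lower and 1 higher with PDGF-DD. Nexn encodes nexilin, an actin-binding Z disc protein, and read 301 with IL-1b against 1532 with its vehicle, and 423 with PDGF-DD against 1656 with its vehicle. It was 5.10-fold lower with IL-1b and 3.92-fold lower with PDGF-DD, and its second probe set gave log2 ratios of -2.03 and -2.39. Ankrd1, an ankyrin repeat protein of the cardiac sarcomere and nucleus, read 2173 with IL-1b against 4133 with its vehicle, and 636 with PDGF-DD against 2426 with its vehicle. Its ratio was under 2-fold with IL-1b (1.90-fold lower) and 3.82-fold lower with PDGF-DD. Flnc, the muscle filamin, was 2.32-fold lower with IL-1b and 1.60-fold lower with PDGF-DD. Pdlim5, a PDZ and LIM protein of the Z disc, was 1.92-fold lower with IL-1b and 2.14-fold lower with PDGF-DD. Myoz3, a Z disc protein of the myozenin family, was the gene that was higher with IL-1b, at 80.7 against 36.9 (2.19-fold).

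Genes of calcium handling and energy supply were lower in 5 of 10 measured with IL-1b and 3 of 9 with PDGF-DD, where 5.42% and 4.67% of all genes were. With a floor at the 60th percentile 2 and 1 were. Casq2, the calcium store protein calsequestrin of heart muscle, read 52.4 with IL-1b against 409 with its vehicle, and 76.3 with PDGF-DD against 479 with its vehicle. It was 7.81-fold lower with IL-1b and 6.28-fold lower with PDGF-DD, and a second probe set gave log2 ratios of -2.81 and -3.41. Unlike Tnnt2, Casq2 stood high on both vehicle arrays. The calcium pump Atp2a1 was 4.13-fold lower with IL-1b and 3.47-fold lower with PDGF-DD. The related pump Atp2a2 was far brighter and differed by under 2-fold. By the probe set used it read 2083 with IL-1b against 2043 with its vehicle, and 2511 with PDGF-DD against 3003 with its vehicle. Pln (phospholamban), a regulator of calcium pumps, was 2.75-fold lower with IL-1b and at least 5.27-fold lower with PDGF-DD. A second Pln probe set gave log2 ratios of -0.84 and at most -1.17, and the remaining one was at the floor.

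Genes nearest to Fbxl22, Ldb3 and Des in role gave mixed values. Of muscle chaperones, ubiquitin ligases and assembly factors, 2 of 13 measured were lower with IL-1b, and 3 of 13 lower and 1 higher with PDGF-DD. Asb2, the substrate-binding part of another muscle ubiquitin ligase, was at least 8.94-fold lower with IL-1b, and like Tnnt2 it was high on the IL-1b vehicle array alone, at 251 against 35.2 or less on the others. Of PDZ and LIM domain genes related to Ldb3, 7 of 15 were lower with IL-1b and 5 of 15 with PDGF-DD, and 0 were higher. Lims2, an adaptor of integrin adhesions, was 9.51-fold lower with IL-1b and 13.4-fold lower with PDGF-DD. Csrp2, a LIM protein of smooth muscle, was 14.8-fold lower with IL-1b and 1.80-fold lower with PDGF-DD. Its PDGF-DD vehicle array was itself 5.33-fold below the IL-1b vehicle array, and against the other vehicle it was 2.78-fold lower with IL-1b and 9.61-fold lower with PDGF-DD. Of intermediate filament genes and partners of Des, 1 was lower with each factor, the dystrophin partner Dtna (2.86-fold with IL-1b and 3.79-fold with PDGF-DD). Vimentin (Vim) was 1.70-fold lower with IL-1b and 1.15-fold lower with PDGF-DD.

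Smooth muscle contractile genes were lower in 14 of 17 measured with IL-1b and 12 of 16 with PDGF-DD, with 0 higher. Their median log2 ratio was -1.83 with IL-1b and -2.13 with PDGF-DD. Among the actins, the log2 ratios with IL-1b and with PDGF-DD, each against its own vehicle, were -4.19 and -4.91 for Acta1. They were -3.43 and at most -4.15 for Actg2 (the gamma-actin of smooth muscle), -1.83 and -2.90 for Acta2, and -0.22 and -0.35 for Actg1 (a cytoplasmic actin). The muscle actins were lower on both factor arrays and the cytoplasmic one differed by under 2-fold. Coding sequences of the actins are much alike, and whether a probe set reads more than 1 of them was not tested.

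**Figure D4:**
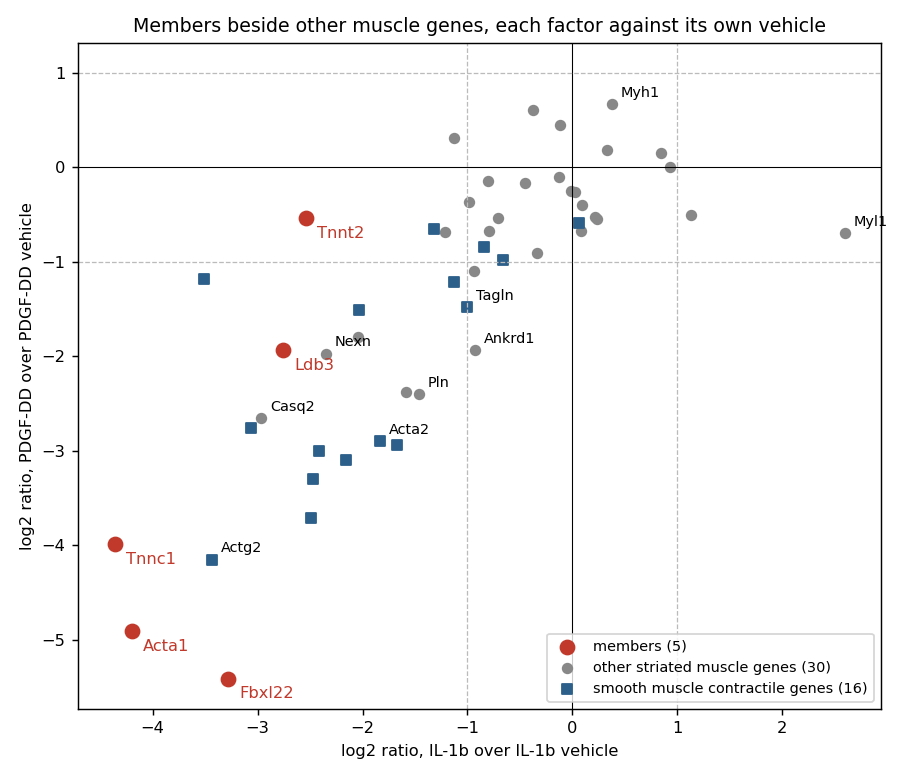
Log2 ratio with IL-1b (horizontal) and with PDGF-DD (vertical), each against its own vehicle, for 5 members (red), 30 other striated muscle genes (grey) and 16 smooth muscle contractile genes (blue squares) measured in both pairs; dashed lines mark 2-fold, and some ratios are bounds set by the floor. Acta1, Tnnc1 and Fbxl22 lie below -3 on both axes, while most grey points lie within 2-fold.

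**Figure D5:**
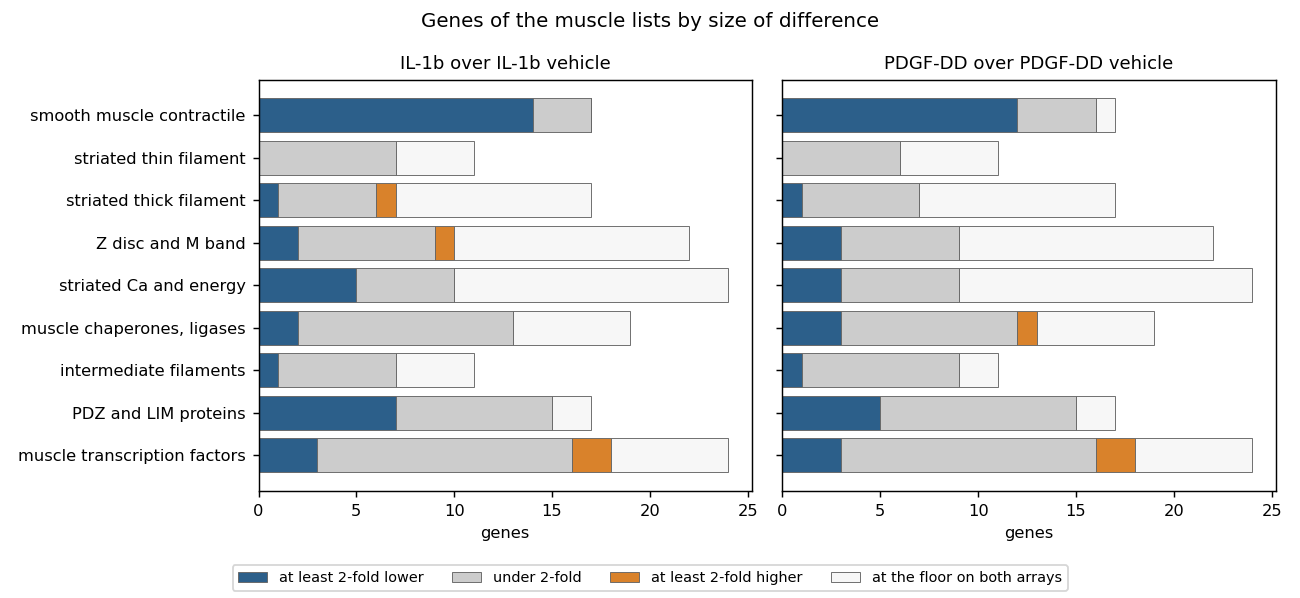
Number of genes of each muscle list at least 2-fold lower, under 2-fold, at least 2-fold higher or at the floor on both arrays, for IL-1b (left) and PDGF-DD (right) against their own vehicles. Lower genes make up 14 of 17 and 12 of 16 measured smooth muscle contractile genes and, at the floor used, 0 of the thin filament genes (3 with IL-1b and 2 with PDGF-DD at a floor at the 20th percentile).

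Transcription factors of muscle were read as a list of 24 genes on the array. At the floor throughout were 5 of them, Myod1, Myf6, Gata4, Tbx5 and Vgll2. Myog (myogenin), also 1 of the skeletal markers, was above the floor on every array. It read 56.8 with IL-1b against 44.5 with its vehicle, and 133 with PDGF-DD against 133 with its vehicle. With IL-1b 3 of 18 measured were lower and 2 higher, and the same numbers were found with PDGF-DD. Over all genes 579 were lower and 657 higher of 10679 with IL-1b, and 474 lower and 430 higher of 10142 with PDGF-DD. Myocd, the SRF cofactor myocardin, read 161 with IL-1b against 924 with its vehicle, and 169 with PDGF-DD against 296 with its vehicle. As for Tnnt2 and Ldb3, the PDGF-DD vehicle array was clearly the lower of the vehicle arrays. Srf was 1.74-fold lower with IL-1b and 1.59-fold lower with PDGF-DD, under the rule of size. Mrtfa, another SRF cofactor, was 1.38-fold lower with IL-1b and 2.23-fold lower with PDGF-DD. Mef2c, a muscle transcription factor, was 3.27-fold lower with IL-1b, with a log2 ratio of 0.18 with PDGF-DD. Klf4, a repressor of smooth muscle genes, was higher with both factors, with log2 ratios of at least 4.99 with IL-1b and of 1.53 with PDGF-DD. The vehicles differed by at least 15.8-fold for Klf4, at 444 with the PDGF-DD vehicle and under the floor with the IL-1b vehicle, and the log2 ratio with IL-1b against the PDGF-DD vehicle was 1.01.

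The genes with the most similar pattern were found for each member by the root mean square difference of log2 levels over the 4 arrays, after each gene's own mean was removed, among 10884 other genes. For Acta1 they were Tnnc1 (0.33), Actg2 (0.43) and Fbxl22 (0.46). For Fbxl22 they were Actg2 (0.46), Acta1 (0.46) and Rgs4 (0.52), and for Tnnc1 they were Wfdc1 (0.30), Acta1 (0.33) and Actg2 (0.38). Acta1 and Actg2 were thus among the 3 nearest of both Tnnc1 and Fbxl22, but Tnnc1 and Fbxl22 were not among each other's. The members were chosen by their values on these arrays, so likeness among them follows in part from that choice. Tnnt2 and Ldb3 had other neighbours. For Tnnt2 they were Selenbp1 (0.14), Matn2 (0.17) and Itgb6 (0.18), each highest on the IL-1b vehicle array. For Ldb3 they were Abcg4 (0.08), Fgfr2 (0.15) and Mybphl (0.17). The nearest genes to Des (Stra6, Cfap90 and C10h5orf47) were, like it, above the floor on the IL-1b vehicle array alone. Actg2, Rgs4, Itgb6, Abcg4 and Mybphl were under the floor with PDGF-DD and were set to it, so their distances rest partly on the floor.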

How the data were processed

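Total RNA was extracted with Trizol and made into biotin-labelled cRNA, per the labels' protocols, and each of the 4 samples was read on 1 Affymetrix array. The deposited values are linear intensity values for each probe set, and the submitters' processing notes name MAS5, whose version and scaling were not found in the labels. The median was 53.3 in all 4 columns.

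The arrays were rescaled to the same mean after 2% was trimmed at each end (factors 1.01 for IL-1b, 1.03 for its vehicle, 0.951 for PDGF-DD and 1.01 for its vehicle). Values under the 40th percentile of all pooled values (28.1) were set to that floor before log2 was taken, and a fold against the floor is a bound. No detection calls were used.

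Probe sets were named from the platform annotation of 2016, in which 20832 had 1 symbol, 436 several and 9831 were not listed; 20764 matched a RefSeq gene by identifier. In counts over genes, each gene was read by its brightest probe set on average (mean log2); for the members all probe sets were read. Genes were compared if above the floor on either array. With 1 array a group no test was run. The members, gene lists and size rule were chosen with earlier results of these data known. Named genes are the members and up to 5 genes of a list with the largest ratios. Also named are the muscle actins, smooth muscle genes, transcription factors and the 3 nearest patterns of each member. Myh1, Lyz2, Cd14, Tnni1, Tnnc2, Atp2a2, Vim and the genes named as at the floor were added with their values known. The steps were tested on simulated data. Scaling, floor, offset and probe set choice were varied. Python 3.11.15, numpy 2.4.6, pandas 2.3.3 and matplotlib 3.10.9 were used.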

Additional observations from a re-analysis of the deposited data

Results flagged for a closer look

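Lum, which encodes lumican, a matrix proteoglycan and 1 of the fibroblast markers, went opposite ways with the factors. Its log2 ratio was 1.55 with IL-1b and -1.46 with PDGF-DD, each against its own vehicle. Each value rests on 1 pair of arrays, and the difference was not tested.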

How the results depend on the processing

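Changing the scaling (as deposited, or quantile normalization), the floor (20th or 60th percentile) or replacing the floor by an offset of 16 reversed 0 of 158 member log2 ratios; 146 stayed within 1.5-fold of the reported value and 12 moved further, 10 of them with the floor at the 60th percentile and 2 with the offset. A changed floor or the offset could not reverse a ratio, because each keeps the order of the values compared. Only a change of scaling could have done so. Ratios with both arrays at the changed floor are not among the 158. With a floor at the 60th percentile these included Tnnt2 with PDGF-DD against its own vehicle, and Des. Of 30 counts of members lower, 29 stayed within 1.5 times. For PDGF-DD against IL-1b the count was 1 in place of 2 with a floor at the 60th percentile. Other striated muscle genes at least 2-fold lower numbered 8 with IL-1b, but 16 with a floor at the 20th percentile and 4 at the 60th. With PDGF-DD they numbered 7, but 16, 4 and, with the offset, 11. A higher floor leaves fewer genes and smaller ratios by construction. Over all genes, the numbers at least 2-fold lower with the floor at the 20th, 40th and 60th percentiles were 1055, 579 and 383 for IL-1b and 918, 474 and 306 for PDGF-DD, each against its own vehicle. Between the vehicles, 1074, 485 and 277 were lower on the PDGF-DD vehicle array. Against the other vehicle the numbers were 795, 523 and 309 with IL-1b and 1760, 1074 and 701 with PDGF-DD; for PDGF-DD against IL-1b they were 1685, 912 and 561. With the scaling as deposited, 3 PDZ and LIM genes in place of 5 were lower with PDGF-DD. Of the 12 ratios that moved, 5 were ratios of Fbxl22, 4 of Ldb3 and 3 of Tnnt2; low signal limits these values, and that of Des, which was at the floor on 3 arrays. No array could be left out, since each group has 1. No paired analysis was possible because each group holds 1 array and the labels give no replicate numbers.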

Other observations

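Myh1, named in the annotation for a fast skeletal muscle myosin heavy chain, had 5 probe sets, all far above the floor on all 4 arrays, while the related Myh2 and Myh4 were at the floor on all 4. Its probe sets disagreed in direction. With IL-1b against its vehicle the one that stood for the gene had a log2 ratio of 0.38, and the other 4 between -0.36 and -0.09. With PDGF-DD against IL-1b it had 1.33, and the other 4 between -1.09 and -0.30. The one that stood for the gene read 1786 on the PDGF-DD vehicle array and 873 on the IL-1b vehicle array, whereas the other 4 read between 243 and 571 on the PDGF-DD vehicle array and between 566 and 1375 on the IL-1b vehicle array. Which transcripts these probe sets read was not tested.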
